A study of Homo sapiens with 12 samples.

Results

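The cyclins, cyclin-dependent kinases (CDKs) and CDK inhibitors of the G1 phase, with the retinoblastoma gene RB1 and the transcription factor gene E2F1, are described here in SUDHL6 and SUDHL16, 2 human diffuse large B cell lymphoma (DLBCL) cell lines, each as the parental line and as a venetoclax-resistant line derived from it. The 10 genes are CCND2, CCND3, CDK4, CDK6, CCNE1, CDKN2A, CDKN2C, CDKN1B, RB1 and E2F1. They were listed by name, and each was found by its GENCODE symbol among the 60675 genes of the count files. Venetoclax (ABT-199) inhibits BCL2. To obtain the resistant lines, cells were kept under slowly raised doses of the drug until they grew at no less than 10 times their starting IC50. Afterwards the resistant lines stayed in culture with the drug, and cells of both kinds were put into fresh medium for experiments. Whether that medium held venetoclax when RNA was taken is not stated, so drug exposure and resistance cannot be told apart. The parental lines came from ATCC. RNA of each group was sequenced in 3 libraries, 12 in all, named here by their titles: CE-7, CE-8 and CE-9 (SUDHL6 parental), CE-10, CE-11 and CE-12 (SUDHL6 resistant), CE-25, CE-26 and CE-27 (SUDHL16 parental) and CE-28, CE-29 and CE-30 (SUDHL16 resistant). For SUDHL6 the NEBNext Ultra II kit and a HiSeq instrument were used, and for SUDHL16 a NovaSeq and a stranded total RNA kit of Illumina after RiboZero Plus depletion, so kit, instrument and line cannot be told apart.

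Entry into S phase is gated by the retinoblastoma protein, which holds E2F transcription factors inactive until CDKs phosphorylate it. D cyclins bind CDK4 and CDK6 to begin this phosphorylation and cyclin E binds CDK2 to complete it, while INK4 proteins block CDK4 and CDK6 and KIP proteins restrain the cyclin E kinase. In germinal centre B cells, the cells DLBCL is thought to arise from, cyclin D3 is the main D cyclin, and loss of CDKN2A and gain of D cyclins or their kinases are known in lymphomas.

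The SUDHL6 libraries held 33992784 to 40885665 counts for the parental and 36212755 to 40298116 for the resistant cells, and the SUDHL16 libraries 4131927 to 16685929 and 14335460 to 22068221. CE-26, a parental SUDHL16 library, stood apart: it had the lowest total of the 12, counts on 34938 genes, and a share of 55.4% of its counts on protein-coding genes. That share was 84.3% to 90.2% for the rest of SUDHL16. Mitochondrial genes took 2.62% of the counts of CE-26 and 0.752% to 1.14% in the rest of SUDHL16. In SUDHL6 they took 5.60% to 5.61% in parental and 6.34% to 6.63% in resistant libraries, without overlap, and the part of this in the comparison was not tested. CE-26 held 2445 counts on the 10 genes, while the other 11 libraries held 21270 to 41483. CE-30, a resistant SUDHL16 library, had low levels of S-phase genes, given with the E2F targets further on. SUDHL16 results are therefore given with all 6 libraries, most of them also without CE-26, and some without both libraries, an alternative chosen after seeing the data. Nothing in the labels says whether libraries of a group came from separate cultures, so the p-values measure the spread between these libraries, which may be technical. That spread was far smaller in SUDHL6 than in SUDHL16: the mean correlation of a library with the others of its group was 0.996 in each SUDHL6 library, 0.958 to 0.965 in resistant SUDHL16, and 0.926, 0.871 and 0.927 in CE-25, CE-26 and CE-27.

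The label of the cells was checked against markers. All 7 B cell markers examined (MS4A1, CD79A, CD79B, CD22, PAX5, BCL6 and MME) had counts in every library, with a summed level of 4104 to 4329.9 counts per 1000000 counts of the TMM-scaled library size (CPM) in SUDHL6, 2733 CPM in CE-26 and 4031 to 4332 CPM in the other SUDHL16 libraries. Of these markers MS4A1 was the most abundant in SUDHL6, and CD22, PAX5 or CD79A in SUDHL16. The 12 markers of T cells, myeloid cells, fibroblasts and epithelium summed to 1.51 to 3.53 CPM in SUDHL6, where 4 to 7 of the 12 had a count. In SUDHL16 they summed to 21.1, 53.3 and 22.6 CPM in CE-25, CE-26 and CE-27 and to 13.6, 13.7 and 11.2 CPM in CE-28, CE-29 and CE-30. DCN made up most of the sum in CE-25 and CE-27 (19.6 CPM in each) and was at 25.3 CPM in CE-26, and CD3E made up most of the resistant sum (10.8 to 13.3 CPM). In the resistant SUDHL16 libraries CD3D, CD2, LYZ, CSF1R, COL1A2, EPCAM, KRT8 and KRT18 were at 0. Some markers differed between the groups, at an adjusted p under 0.05 and at least 1.5-fold in edgeR. In SUDHL6 these were MME, lower in resistant cells (107 to 109 CPM in parental and 50.9 to 56.2 CPM in resistant libraries), 1 of the 7 B cell markers against 8.96% of all genes tested, and KRT18, higher at under 1 CPM. In SUDHL16 they were CD3E, higher, and DCN, lower, the only 2 of the 12 tested there, and 0 of the 7 B cell markers, against 5.30% of all genes tested. Of the B cell markers not called in SUDHL6, BCL6, MS4A1 and CD22 had higher means in resistant cells (177 and 261, 1847 and 2137, and 480 and 527 CPM). CD79A, CD79B and PAX5 had lower means there (745 and 686, 456 and 347, and 319 and 309 CPM). The part of all these marker transcripts in the results was not tested.

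Different genes were compared by their level per kb of exon, and on that scale cyclin D3 and E2F1 transcripts were the highest of the 10 in SUDHL6, a place that E2F1 does not keep by the canonical length given below. In parental SUDHL6 cells E2F1 was at 46.5 CPM per kb and CCND3 at 43.3, followed by CDK4 (39.2), CDKN2C (29.9), CDKN2A (23.7), RB1 (15.2), CDK6 (11.1), CCNE1 (7.03), CDKN1B (3.74) and CCND2 (0.0850). No neighbours in this order overlapped between libraries. In resistant SUDHL6 cells CCND3 was first at 56.8 CPM per kb, followed by E2F1 at 43.9, CDKN2C at 41.2 and CDK4 at 32.3, again with no overlap between neighbours.

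In SUDHL16 the order per kb was different, with CDK6 near the top and CCND3 well below the kinases. Parental cells had E2F1 at 37.9, CDK6 at 37.8, CDK4 at 33.4, CDKN2A at 28.4, RB1 at 27.3 and CDKN2C at 20.1 CPM per kb. Each of these overlapped its neighbour between libraries, so their order is not resolved. CCND3 at 12.5 CPM per kb lay below CDKN2C without overlap, and CCNE1 (9.47) and CDKN1B (7.67) overlapped their neighbours above. In resistant SUDHL16 cells E2F1 was at 79.6 CPM per kb, CDK6 at 51.1, CDK4 at 48.4 and RB1 at 42.1, and these neighbours overlapped as well. The order depends on the length used: per kb of the canonical transcript alone, CCND3 was first in both SUDHL6 groups and CDKN2A first in both SUDHL16 groups. By that length E2F1 was number 5 in both SUDHL6 groups, and CDK6 was number 4 in parental and number 6 in resistant SUDHL16 cells, at 39.7 and 53.6 CPM per kb beside 35.5 and 37.6 for CCND3.

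**Figure D1:**
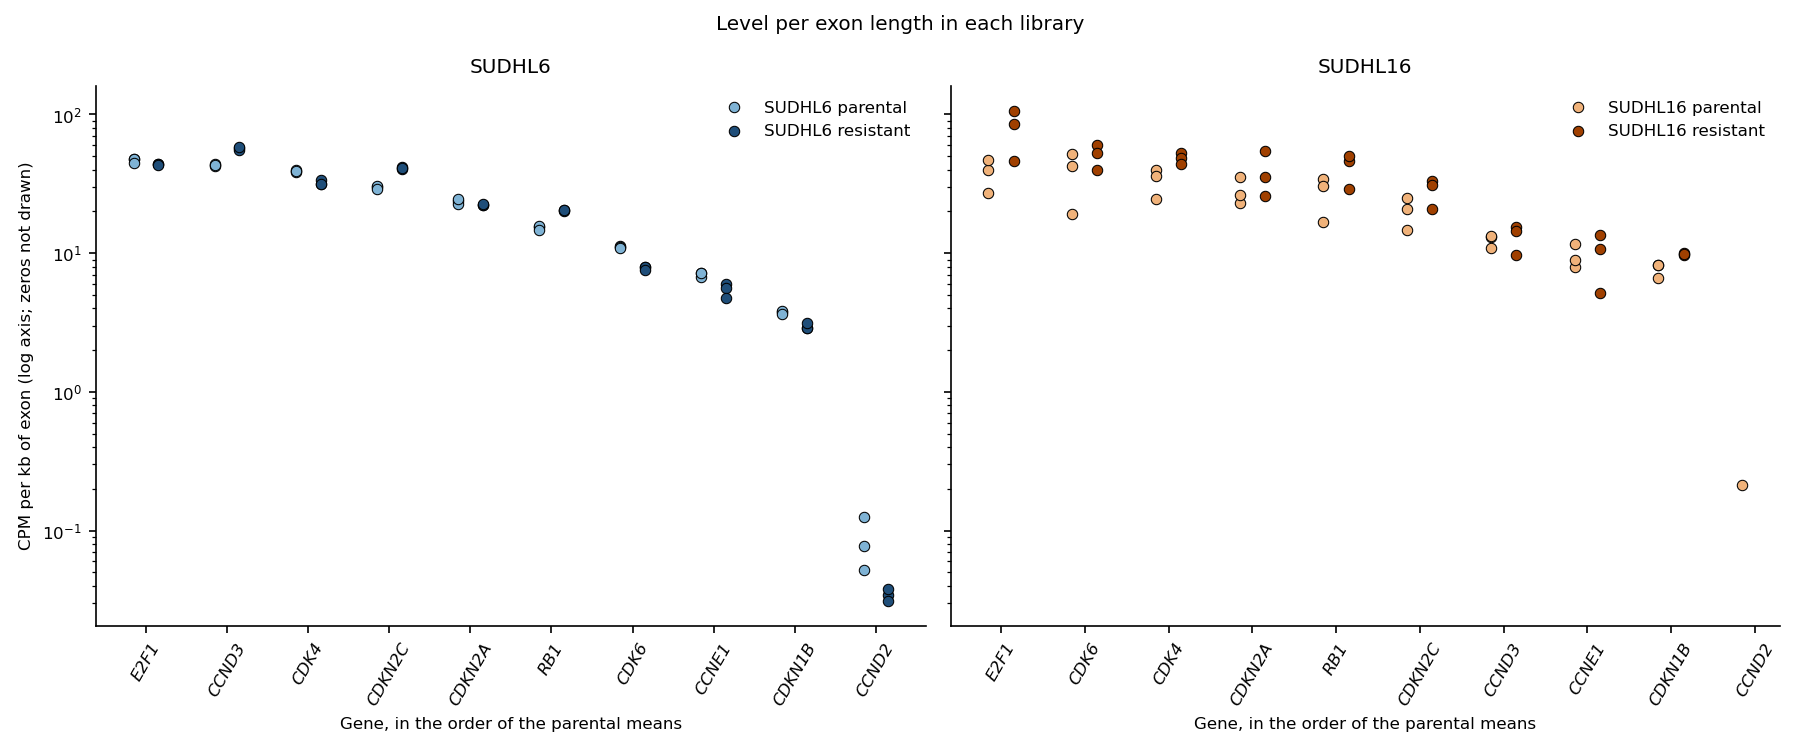
Level of each gene per kb of exon in each library, in CPM per kb on a log axis, with parental cells in the pale and resistant cells in the dark colour and genes ordered by the parental mean of their line. SUDHL6 libraries lie close together, with CCND3 at 43.3 and then 56.8 CPM per kb on average, and SUDHL16 libraries are spread wider, with CDK6 at 37.8 and then 51.1.

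The first comparison asks how these genes differed between resistant and parental SUDHL6 cells. Resistant cells had more CCND3, CDKN2C and RB1 and less CDK4, CDK6, CCNE1 and CDKN1B, each by less than 1.5-fold, and less of the scarce CCND2. All 10 genes were tested, by edgeR's quasi-likelihood test fitted over 16662 genes with Benjamini-Hochberg adjustment. A gene is said to have changed at an adjusted p under 0.05, and is called when it also changed at least 1.5-fold. Of the 10 genes 9 changed, 3 higher and 6 lower, against 37.3% of all genes tested (17.7% higher and 19.7% lower). Resistant and parental libraries did not overlap for the same 9, against 47.9% of all genes tested (23.1% higher and 24.8% lower). The shares over all genes, here and for the lists below, were not matched for level. Per kb, parental SUDHL6 levels lay above 94.1% of tested coding genes for E2F1 and 4.59% for CCND2, with the other members between. Only CCND2 was called, 1 of 10 against 8.96% of all genes tested, which is close to the background. With DESeq2 8 of the 10 changed, against 33.6% of all genes. In a single fit of all 12 libraries, which gives each gene 1 estimate of spread for both lines, 0 of the 10 changed in SUDHL6, against 0.714% of all genes, and 2 had an unadjusted p under 0.05, against 5.68%. The median log2 fold change of the 10 was -0.18, beside -0.00 over all genes tested.

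In SUDHL16 the same comparison gave much wider intervals for each of the 9 genes tested. They had estimates above 0, with a median log2 fold change of 0.44, beside -0.02 over the 15708 genes tested. None of the 9 changed in the edgeR test, where 5.30% of all genes changed and as many were called. E2F1 alone had an unadjusted p under 0.05, against 19.1% of all genes tested, and DESeq2 called 1 gene, E2F1, against 11.3% of all genes it tested. The single fit of all 12 libraries, where CCND2 was tested too, called E2F1 alone, against 14.6% of all genes, and 7 of the 10 had an unadjusted p under 0.05, against 30.9% of all genes. The 6 libraries separated by group for CDK4 and CDKN1B, both higher in resistant cells, and overlapped for the other 7, against 26.6% of all genes not overlapping (14.6% higher and 11.9% lower). Without CE-26 the 9 estimates were again above 0, with a median of 0.33 beside 0.05 over all genes tested, and 0 changed against 10.0% of all genes. That fit again gave E2F1 alone an unadjusted p under 0.05, against 23.3% of all genes. The direction held under every alternative for 7 of the 9. Upper-quartile scaling turned it for CCND3 and CCNE1. Upper-quartile scaling moved the median of all genes to -0.11 and unscaled library totals moved it to 0.12.

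**Figure D2:**
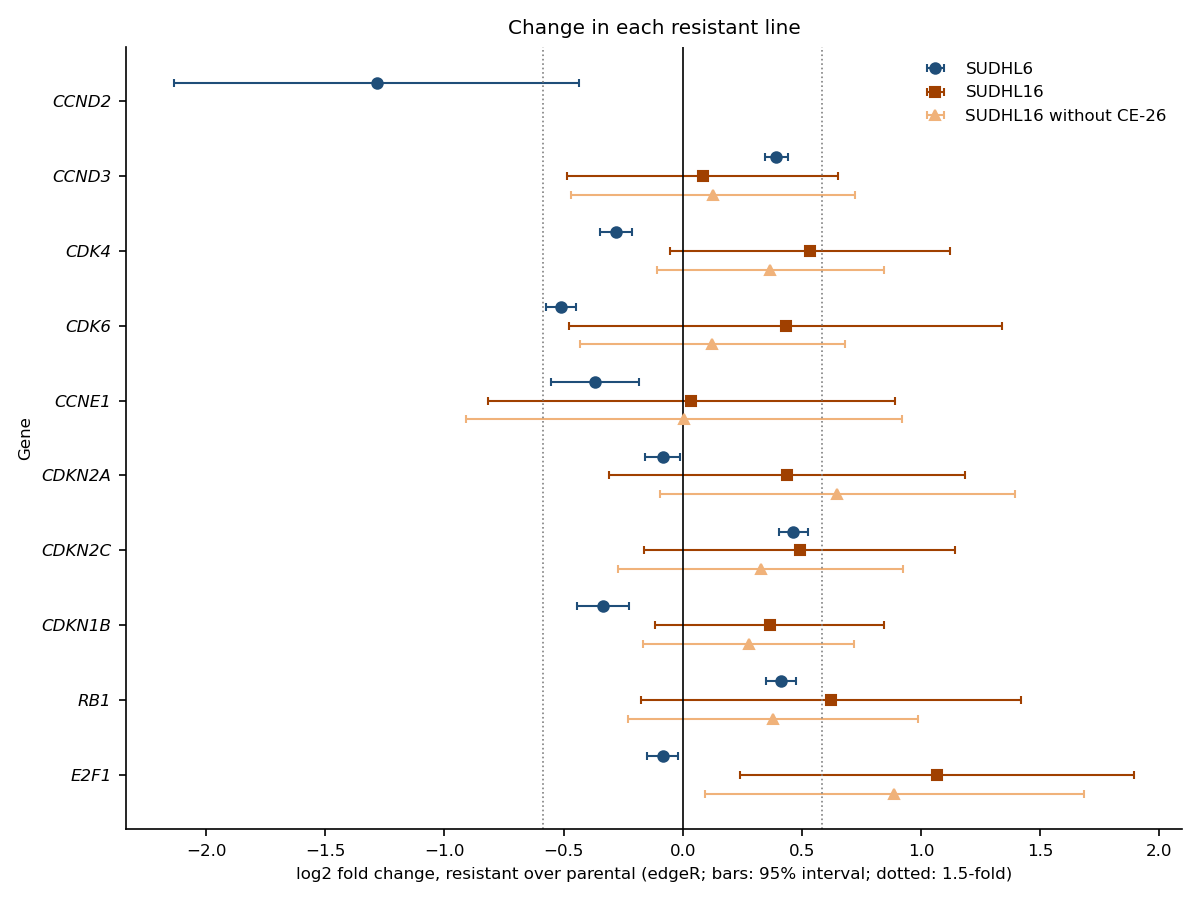
Log2 fold change of each gene, resistant over parental, from the edgeR fit of SUDHL6 (circles), of SUDHL16 (squares) and of SUDHL16 without CE-26 (triangles), with 95% intervals and dotted lines at 1.5-fold. SUDHL6 intervals are narrow except for CCND2 (-2.13 to -0.43), and in SUDHL16 E2F1 has the estimate farthest from 0 (1.07, interval 0.24 to 1.89).

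The D cyclins carry the growth signal into the cycle, and CCND3 (ENSG00000112576, chromosome 6, 41934934 to 42050357, minus strand of GRCh38) was the D cyclin of both lines. In SUDHL6 it was at 252, 246 and 249.8 CPM in CE-7, CE-8 and CE-9 and at 330.5, 319 and 333 CPM in CE-10, CE-11 and CE-12. The resistant libraries were all higher, with no overlap and little spread in either group. CCND3 rose 1.31-fold (log2 fold change 0.39, SE 0.02, adjusted p 2.98e-08).

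In SUDHL16, CCND3 was at 63.3, 75.2 and 77.2 CPM in CE-25, CE-26 and CE-27 and at 89.4, 83.0 and 55.9 CPM in CE-28, CE-29 and CE-30. The groups overlapped because CE-30 was the lowest of the 6 and CE-28 and CE-29 the highest. The log2 estimate was 0.08 (SE 0.25, adjusted p 0.903) and 0.13 without CE-26 (adjusted p 0.830), and it turned to -0.028 without CE-28 and to -0.020 with upper-quartile scaling. CCND3 made up 99.4% of the summed D cyclin level per kb in parental SUDHL6 cells, 99.3% in resistant SUDHL6, 99.5% in parental SUDHL16 and 99.7% in resistant SUDHL16.

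CCND2, which encodes cyclin D2 (ENSG00000118971, chromosome 12, 4269771 to 4305353, plus strand), was near the limit of detection. CE-7, CE-8 and CE-9 held 21, 34 and 17 counts of it and CE-10, CE-11 and CE-12 held 11, 10 and 11, with means of 0.679 and 0.274 CPM. Each resistant library was below each parental one, and CE-8 was the highest. CCND2 fell 2.44-fold (log2 fold change -1.28, SE 0.39, adjusted p 0.0210), the only call among the 10 genes. The call was lost without CE-8 (-0.90, adjusted p 0.122), without CE-10 (-1.28, adjusted p 0.0577) and without CE-11 (-1.22, adjusted p 0.0674). In SUDHL16, CE-26 held 5 counts and the other 5 libraries 0, which allows up to 0.127 to 0.199 CPM at 3 counts a library, a limit that covers counting error only. CCND2 was not tested there.

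CDK4 and CDK6 encode the kinases that D cyclins activate. CDK4 (ENSG00000135446, chromosome 12, 57747727 to 57756013, minus strand) was at 123, 119 and 122 CPM in parental and 97.1, 104 and 98.2 CPM in resistant SUDHL6 libraries. The groups did not overlap, and the resistant group was the lower. CDK4 fell 1.21-fold (log2 fold change -0.28, SE 0.03, adjusted p 1.46e-05).

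In SUDHL16, CDK4 was at 123, 75.9 and 111 CPM in CE-25, CE-26 and CE-27 and at 163, 151 and 136 CPM in CE-28, CE-29 and CE-30. All 3 resistant libraries were higher than all 3 parental ones, and CE-26 was the lowest of the 6. The estimated log2 change was 0.53 (SE 0.26, interval -0.05 to 1.12, adjusted p 0.311), and 0.37 without CE-26 (adjusted p 0.344). CDK4 shares 1369 exon bases, 44.2% of its own, with TSPAN31 on the other strand, which had 504 to 1109 counts a library. TSPAN31 had a log2 estimate of -1.15 in SUDHL16 (adjusted p 0.222 in edgeR), -0.37 without CE-26 (adjusted p 0.426), and 0.03 in SUDHL6. The strand setting of the counting was not given in the sources used here, and the part of TSPAN31 in the CDK4 counts was not tested.

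CDK6 (ENSG00000105810, chromosome 7, 92604921 to 92836573, minus strand) was at 137, 137 and 133 CPM in parental and 96.9, 96.9 and 91.9 CPM in resistant SUDHL6 libraries. The resistant libraries were all lower, with a gap wider than the spread of either group. CDK6 fell 1.42-fold (log2 fold change -0.51, SE 0.03, adjusted p 2.92e-08), which made it the most reduced of the genes with more than 1 CPM.

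In SUDHL16, CDK6 was at 636, 237 and 517 CPM in parental and 487, 743 and 645 CPM in resistant libraries. The groups overlapped: CE-26 was lowest, CE-28 was below CE-25 and CE-27, and CE-29 and CE-30 were highest. The CDK6 estimate was 0.43 (SE 0.40, adjusted p 0.629), and CE-26 decided most of it, since it was 0.12 without that library (SE 0.24, adjusted p 0.823). The CDK6 level per kb, relative to that of CDK4, was 0.283 ± 0.0075 in parental and 0.241 ± 0.0095 in resistant SUDHL6 cells (SD, n = 3), without overlap. In SUDHL16 the ratio was 1.09 ± 0.270 and 1.07 ± 0.269, with overlap, and the parental mean was 1.24 without CE-26. By the canonical length the SUDHL16 ratios were 0.690 and 0.675. CDK6 was therefore the lesser kinase transcript in SUDHL6 by either length, while in SUDHL16 the length decides whether it was level with CDK4.

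CCNE1 encodes cyclin E1, the partner of CDK2 late in G1 (ENSG00000105173, chromosome 19, 29811991 to 29824312, plus strand). It was at 17.8, 16.5 and 17.7 CPM in parental and 14.7, 13.9 and 11.7 CPM in resistant SUDHL6 libraries. The groups did not overlap, and CE-12 was the lowest. CCNE1 fell 1.29-fold (log2 fold change -0.37, SE 0.08, adjusted p 0.00416).

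In SUDHL16, CCNE1 was at 19.4, 21.9 and 28.6 CPM in parental and 26.2, 33.0 and 12.6 CPM in resistant libraries. The resistant libraries included the highest value, in CE-29, and the lowest, in CE-30. The CCNE1 estimate was 0.04 (SE 0.37, interval -0.82 to 0.89, adjusted p 0.972) and 0.01 without CE-26 (adjusted p 0.995), and its sign turned without CE-25 (-0.07), without CE-28 (-0.01), without CE-29 (-0.27), with upper-quartile scaling (-0.064) and with protein-coding genes only (-0.017). Per kb, CCNE1 was at 0.389 ± 0.0386 of the level of CCNE2, the other cyclin E gene, in parental SUDHL6 and at 0.326 ± 0.0317 in resistant SUDHL6 cells. In SUDHL16 the ratio was 2.25 ± 0.118 (2.18 without CE-26) and 1.66 ± 0.465, so CCNE2 was the main cyclin E transcript of SUDHL6 and CCNE1 that of SUDHL16 on this scale.

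**Figure D3:**
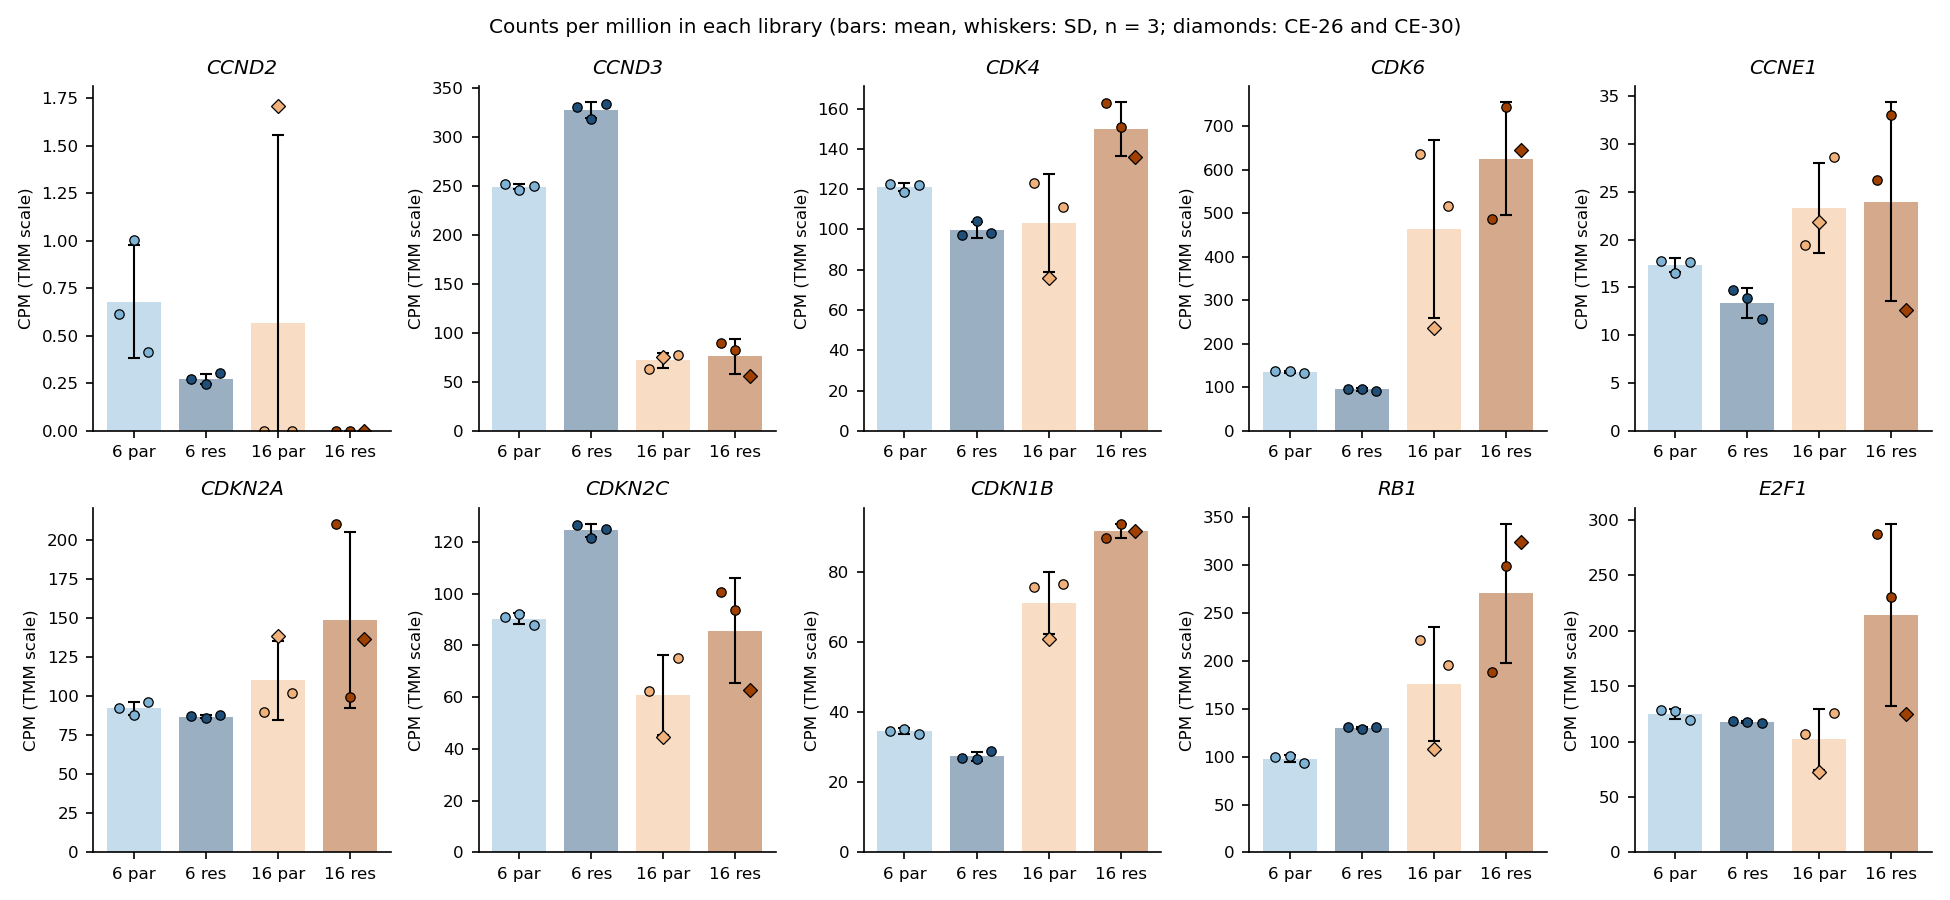
Level of each gene in each library in CPM on the TMM scale, with bars at the mean of 3 libraries, whiskers at 1 SD, and diamonds for CE-26 and CE-30. In SUDHL6 the resistant libraries lie above the parental ones for CCND3, CDKN2C and RB1. In SUDHL16 the groups separate for CDK4 and CDKN1B, and CE-26 is the lowest library of the line for CDK4, CDK6, CDKN2C, CDKN1B, RB1 and E2F1.

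The INK4 proteins bind CDK4 and CDK6 and keep D cyclins off. CDKN2C (ENSG00000123080, chromosome 1, 50960745 to 50974634, plus strand), whose product is induced as B cells end proliferation to become plasma cells, was at 90.9, 92.0 and 88.0 CPM in parental SUDHL6 libraries. In the resistant libraries it was at 127, 122 and 125 CPM, all higher. CDKN2C rose 1.38-fold (log2 fold change 0.46, SE 0.03, adjusted p 6.02e-08), the largest increase of the 10 genes in SUDHL6. Beside the lower CDK4 and CDK6 this changed the balance of CDKN2C to these kinases. The CDKN2C level per kb was set over that of CDK4 and CDK6 together. That ratio was 0.595 ± 0.0182 in parental and 1.03 ± 0.0538 in resistant SUDHL6 cells (SD, n = 3), without overlap. By the canonical length it was 1.18 and 2.03, so the rise holds by either length. The length decides whether CDKN2C lay above the kinases in parental cells. CDKN2A, an INK4 gene that did not rise, is not in this ratio. It was at 23.7 CPM per kb in parental and 22.4 in resistant SUDHL6 cells, and at 94.3 and 89.0 by the canonical length. The ratio is of transcripts and was given no test of its own.

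In SUDHL16, CDKN2C was at 62.5, 44.4 and 75.3 CPM in parental and 101, 93.8 and 62.7 CPM in resistant libraries. CE-30 fell among the parental libraries, and CE-28 and CE-29 were above them all. The CDKN2C estimate was 0.49 (SE 0.28, adjusted p 0.404), 0.33 without CE-26 (adjusted p 0.529) and 0.50 without CE-26 and CE-30 (adjusted p 0.195). The ratio to both kinases was 0.294 ± 0.0591 and 0.287 ± 0.0736, with overlap, and the parental mean was 0.273 without CE-26. By the canonical length it was 0.661 and 0.643.

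CDKN2A (ENSG00000147889, chromosome 9, 21967752 to 21995301, minus strand) encodes an INK4 inhibitor and, in another reading frame, ARF, an activator of the p53 pathway, and counts per gene do not separate their transcripts. It was expressed in both lines, at 92.6, 87.9 and 96.3 CPM in parental and 87.2, 85.9 and 88.0 CPM in resistant SUDHL6 libraries. The groups overlapped in a narrow range. Its log2 estimate of -0.08 (SE 0.03, adjusted p 0.0648) was the only one of the 10 that missed the threshold in SUDHL6, and without CE-8 it passed (-0.12, adjusted p 0.0117).

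In SUDHL16, CDKN2A was at 90.0, 138 and 102 CPM in parental and 210.4, 99.8 and 137 CPM in resistant libraries. CE-28 was far above the rest and the other libraries were mixed. The log2 estimate was 0.44 (SE 0.33, adjusted p 0.537), 0.65 without CE-26 (adjusted p 0.284) and 0.13 without CE-28 (adjusted p 0.895). Of the exon bases of CDKN2A, 15.3% are shared with CDKN2B-AS1 on the other strand, which had 13 to 175 counts a library.

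CDKN1B encodes p27, the KIP inhibitor of the cyclin E kinase (ENSG00000111276, chromosome 12, 12685498 to 12722369, plus strand). It was at 34.7, 35.3 and 33.7 CPM in parental and 26.8, 26.6 and 28.9 CPM in resistant SUDHL6 libraries, where all 3 were lower. CDKN1B fell 1.26-fold (log2 fold change -0.33, SE 0.05, adjusted p 0.000184). In SUDHL16 it was at 75.7, 60.8 and 76.5 CPM in parental and 89.6, 93.6 and 91.6 CPM in resistant libraries. There the 3 resistant libraries were all higher and close together, and CE-26 was the lowest. The log2 estimate was 0.36 (SE 0.21, interval -0.12 to 0.85, adjusted p 0.400), and 0.28 without CE-26 (adjusted p 0.457).

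RB1, the target of the kinases (ENSG00000139687, chromosome 13, 48303744 to 48599436, plus strand), was at 99.5, 100.5 and 93.9 CPM in parental and 131, 129 and 131 CPM in resistant SUDHL6 libraries. The resistant libraries were all higher. RB1 rose 1.33-fold (log2 fold change 0.41, SE 0.03, adjusted p 2.47e-07). In SUDHL16 it was at 222, 108 and 196 CPM in parental and 188, 299 and 325 CPM in resistant libraries, and the groups overlapped, since CE-28 was below CE-25 and CE-27. The RB1 estimate was 0.62 (SE 0.35, adjusted p 0.387), 0.38 without CE-26 (adjusted p 0.460) and 0.22 without CE-26 and CE-30 (adjusted p 0.698). CE-26, at 108 CPM, was the lowest library and CE-30, at 325 CPM, the highest.

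E2F1 encodes the activating transcription factor that RB1 restrains (ENSG00000101412, chromosome 20, 33675477 to 33686385, minus strand). E2F factors are known to act on the E2F1 promoter itself, so the 150 bases before its start are shown here, at chr20:33686386-33686535 on the minus strand, from RefSeq on GRCh38.p14, with E2F motif matches in capitals.
E2F1 promoter: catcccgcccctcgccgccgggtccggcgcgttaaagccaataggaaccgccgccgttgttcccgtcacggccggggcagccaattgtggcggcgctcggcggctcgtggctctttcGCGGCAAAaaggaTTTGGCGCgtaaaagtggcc
The motifs searched, on both strands of the 250 bases before each start, were TTTCCCGC, TTTCGCGC, TTTGCCGC and TTTGGCGC. The E2F1 run holds 2 matches, GCGGCAAA, the reverse complement of TTTGCCGC, at 33 to 26 bases before the start, and TTTGGCGC at 20 to 13 bases before it. Of the 10 genes 9 had entries in the RefSeq table, 15 in all, and a match was found in that of E2F1 alone. A match was found in 2.79% of all 35116 entries. A match describes letters in this window and no more.

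In SUDHL6, E2F1 was at 128, 128 and 119.7 CPM in CE-7, CE-8 and CE-9 and at 119.0, 118 and 117 CPM in CE-10, CE-11 and CE-12. The groups did not overlap, but CE-9 lay just above CE-10. E2F1 was lower by a log2 fold change of -0.08 (SE 0.03, adjusted p 0.0408). That small difference missed the threshold without CE-7 (-0.06, adjusted p 0.180), CE-8 (-0.07, 0.137), CE-10 (-0.09, 0.0684), CE-11 (-0.08, 0.0821) or CE-12 (-0.08, 0.105), and with DESeq2 (-0.08, 0.0565), upper-quartile scaling (-0.07, 0.102), library totals (-0.08, 0.0660), no filter (-0.08, 0.0914) and the single fit (-0.09, 1). It passed in 2 of the 12 alternatives, without CE-9 and with protein-coding genes only.

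In SUDHL16, E2F1 was at 107, 72.5 and 126 CPM in CE-25, CE-26 and CE-27 and at 287, 230.4 and 125 CPM in CE-28, CE-29 and CE-30. CE-28 and CE-29 were far above every parental library, while CE-30 lay level with the highest of them, so the groups overlapped. The estimate was a 2.09-fold increase (log2 fold change 1.07, SE 0.36, interval 0.24 to 1.89), and its adjusted p of 0.149 missed the threshold. Without CE-26 it was 0.89 (adjusted p 0.164) and without CE-30 alone 1.35 (adjusted p 0.124). Without both it was 1.15 (adjusted p 0.0185), where E2F1 was called, 1 of 9 genes against 10.2% of all genes. That setting was chosen after seeing the data, and CE-30 was the resistant library lowest in E2F1. Dropping CE-30 raises the estimate by construction, so this call is no separate support for an increase. DESeq2 called E2F1 in all 6 libraries (1.05, adjusted p 0.0419). Its lowest and highest adjusted p among the alternatives were 0.0185 and 0.385.

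The level of E2F1 relative to RB1, per kb, separated the groups of SUDHL6 and not those of SUDHL16. The ratio was 3.05 ± 0.0220 in parental and 2.16 ± 0.0246 in resistant SUDHL6 cells (SD, n = 3). In parental SUDHL16 it was 1.43 ± 0.240, and 1.35 without CE-26. In the resistant SUDHL16 libraries it was 3.65 in CE-28, 1.84 in CE-29 and 0.920 in CE-30, a range that enclosed all 3 parental libraries.

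Whether a gene changed differently in the lines was tested with the interaction of line and resistance in a fit of all 12 libraries. CDK4, CDKN1B and E2F1 had differences of SUDHL16 minus SUDHL6 of 0.83 (adjusted p 0.103), 0.72 (adjusted p 0.0621) and 1.16 (adjusted p 0.113) on the log2 scale. CDK6 had 0.95 (adjusted p 0.254), more than CDK4 or CDKN1B, CDKN2A 0.57 (adjusted p 0.321) and CCNE1 0.43 (adjusted p 0.616). Without CE-26 these last differences were 0.60, 0.68 and 0.33, and none passed. In edgeR 0 of the 10 genes passed, against 7.16% of all 19621 genes tested, with 3 at an unadjusted p under 0.05, against 21.8% of all genes. DESeq2 passed CDK4, CDKN1B and E2F1, against 15.1% of all genes.

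CE-26 bears on this result. Without it the differences were 0.60 for CDK4 (adjusted p 0.0117) and 0.57 for CDKN1B (adjusted p 0.0131), and both passed, 2 of 10 against 14.0% of all genes. Without CE-30, E2F1 passed alone (1.44, adjusted p 0.0365), against 5.96% of all genes. Without both libraries all 3 passed, CDK4 at 0.66 (adjusted p 0.00192), CDKN1B at 0.56 (adjusted p 0.00523) and E2F1 at 1.19 (adjusted p 0.000198), 3 of 10 against 19.1% of all genes. CE-30 was the resistant SUDHL16 library lowest in E2F1 and CDK4, and the setting without both was chosen after seeing the data. Passes gained by leaving out CE-30 therefore depend on the values tested and are no separate support. CDK4 and CDKN1B are the genes whose libraries separated in opposite directions in the lines, lower in resistant SUDHL6 and higher in resistant SUDHL16, as did 4.79% of the 13576 genes tested in both lines (7.65% either way). The difference was -0.27 for CCND3 (interval -0.79 to 0.24), 0.04 for CDKN2C (-0.65 to 0.73) and 0.22 for RB1 (-0.66 to 1.11), the genes that rose in SUDHL6. Without CE-26 these differences were -0.31, -0.18 and -0.07, so those of CDKN2C and RB1 turned. The lowest and highest adjusted p of any alternative were 0.00192 and 0.322 for CDK4, 3.50e-05 and 0.287 for CDKN1B, and 0.000198 and 0.270 for E2F1.

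Genes on the same stretch of a chromosome can change together, so each of the 10 was set beside the tested protein-coding genes within 5 Mb either side. In SUDHL6 the genes around CCND2 were mostly lower: 66 of 74 had estimates below 0, with a median of -0.37, and 20 were called lower and 0 higher, where 8.96% of all genes were called either way. Its nearest tested neighbours were both lower, PARP11 at -0.37 (adjusted p 0.000744) and TIGAR at -0.61 (adjusted p 6.69e-08). For the other 9 genes the median in SUDHL6 lay between -0.10 and 0.03. CDKN1B, on the same chromosome arm as CCND2, had -0.10, with 8 of 45 genes called lower and 0 higher, but within 2 Mb the median was 0.02 and 1 of 20 was called lower.

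In SUDHL16 the neighbourhood that stood out was that of E2F1. Its median was 0.69, with 60 of 76 genes above 0, 14 called higher and 1 lower, where 5.30% of all genes were called. Without CE-26 it was 0.78, with 67 of 76 above 0, 27 called higher and 1 lower, where 10.0% of all genes were called. The nearest tested genes were NECAB3 at 0.62 (adjusted p 0.347) and PXMP4 at 1.85 (adjusted p 0.00730). E2F1, at 1.07, was above the median of a neighbourhood that was itself high. Without CE-26 E2F1 was at 0.89, above the median within 5 Mb but below the 0.92 within 2 Mb, so its place relative to its neighbours is not settled. In SUDHL6 the 81 genes tested in that window had a median of -0.01. Around CDK6 the SUDHL16 median was 0.46, with 21 of 29 genes above 0, beside 0.43 for CDK6. Without CE-26 it was 0.41, with 21 of 30 genes above 0, beside 0.12 for CDK6. The nearest tested genes there were FAM133B at 0.81 (adjusted p 0.173) and SAMD9 at 0.68 (adjusted p 0.173). For RB1, CDKN2A and CDKN1B the SUDHL16 median was below 0, at -0.11, -0.16 and -0.22, and at -0.20, -0.07 and -0.20 without CE-26, while each of these genes had an estimate above 0. DNA copy number was not analysed here.

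Among the nearest genes of the other members, RCBTB2, which lies within the annotated span of RB1 on the other strand, was called higher in SUDHL6 (0.74, adjusted p 3.28e-07), and ITM2B on the other side was at 0.06. GPR19, which overlaps the annotated span of CDKN1B on the other strand, fell as CDKN1B did in SUDHL6 (-0.39, adjusted p 0.0164). APOLD1, on the other side of CDKN1B, was at -0.16 (adjusted p 0.847). SAMD9, beside CDK6, fell as CDK6 did in SUDHL6 (-0.41, adjusted p 4.78e-05), while FAM133B on its other side was at -0.01. MTAP, beside CDKN2A, was at -0.21 in SUDHL6 (adjusted p 9.36e-05), and CDKN2B on the other side of CDKN2A was at 0.21 (adjusted p 0.393). Neighbours of CCND3, CDK4, CCNE1 and CDKN2C in SUDHL6 had estimates between -0.03 and 0.29. Beside E2F1 in SUDHL6, C20orf144 was at 0.06 and PXMP4 at 0.28 (adjusted p 0.00441). In SUDHL16, PXMP4 was the only nearest gene of any of the 10 to change in edgeR with all 6 libraries. Without CE-26, APOLD1 beside CDKN1B changed as well (2.54, adjusted p 0.0390), but it did not pass with all 6 libraries (1.26, adjusted p 0.459) or without CE-26 and CE-30 (2.47, adjusted p 0.0721).

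**Figure D4:**
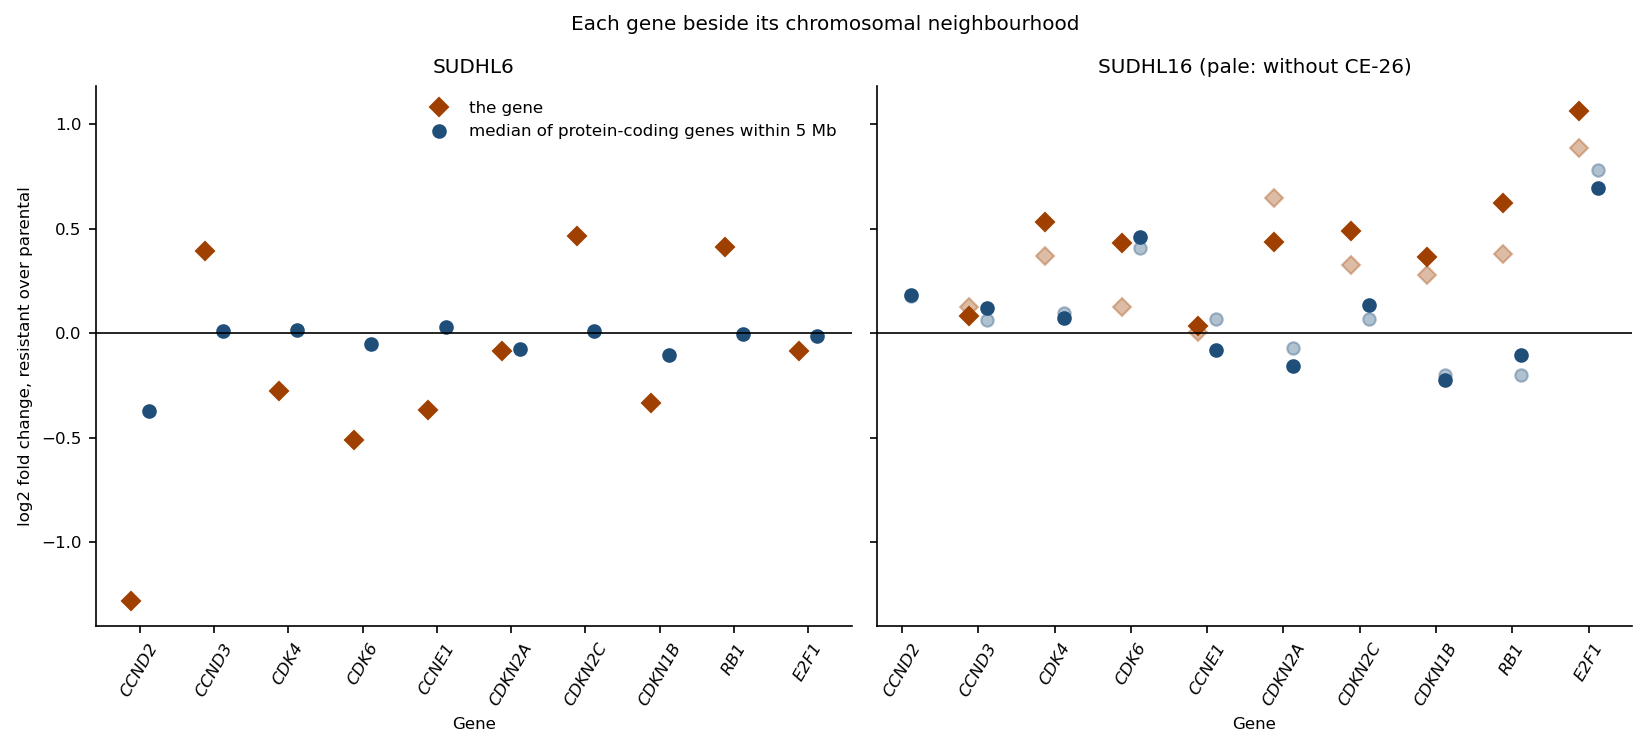
Log2 fold change, resistant over parental, of each gene (diamonds) and the median of the tested protein-coding genes within 5 Mb either side (circles), in SUDHL6 and in SUDHL16, with the values without CE-26 in pale. Within each line the median farthest from 0 is that around CCND2 in SUDHL6 (-0.37) and that around E2F1 in SUDHL16 (0.69, and 0.78 without CE-26). CCND2 was not tested in SUDHL16 and has a circle only.

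The rest of the G1/S machinery was followed in a list of 27 further genes, which holds the other cyclins, CDK inhibitors, E2F factors and their partners. In SUDHL6, 25 were tested, CCNA1 and CDKN1C being too low, and 18 changed, 6 higher and 12 lower, where 37.3% of all genes did. Their median was -0.06, beside -0.00 for all genes. CDKN2D, another INK4 gene, rose from 4.78, 5.40 and 5.03 CPM in parental to 10.8, 8.81 and 12.8 CPM in resistant libraries. It was called (2.13-fold, log2 fold change 1.09, SE 0.13, adjusted p 2.60e-05). CCND1, the remaining D cyclin, was called as well (log2 fold change 1.11, SE 0.25, adjusted p 0.00368), from 27, 19 and 47 counts in parental to 68, 86 and 61 counts in resistant libraries. These were the 2 calls among the 25 genes, against 8.96% of all genes tested, so no more than the background.

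In SUDHL16, 24 of the 27 were tested, with a median of -0.04, and TFDP2, which encodes a dimerization partner of E2F factors, was the only call, against 5.30% of all genes. It was at 75.2, 309.7 and 72.7 CPM in CE-25, CE-26 and CE-27 and at 31.0, 21.3 and 27.7 CPM in CE-28, CE-29 and CE-30. CE-26 was far above the rest, and all 3 resistant libraries were below all parental ones. TFDP2 fell by 2.51 on the log2 scale (SE 0.57, adjusted p 0.0432), and by 1.46 without CE-26 (adjusted p 0.00578). The call was lost without CE-28 (-2.60, adjusted p 0.157), CE-29 (-2.35, 0.203) or CE-30 (-2.51, 0.188), and with upper-quartile scaling (-2.66, 0.0526). TFDP2 also fell in SUDHL6 (-0.37, adjusted p 0.000229).

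The E2F targets, genes for DNA replication and nucleotide supply that E2F factors switch on at the G1/S border, were followed in a list of 19. In SUDHL6, 18 of the 19 changed, 15 lower and 3 higher, where 37.3% of all genes did, and the median was -0.23. The 3 that rose were TYMS (0.54), RRM2 (0.26) and CDK1 (0.09). MCM5, a subunit of the replicative helicase, was at 264, 262 and 266 CPM in parental and 175, 174 and 173 CPM in resistant libraries, and fell 1.52-fold (log2 fold change -0.60, SE 0.02, adjusted p 2.73e-10). That was the only call of the 19, against 8.96% of all genes, and lies at the fold threshold, so upper-quartile scaling (-0.58) ended it. The summed level of the 19 genes was 5268 to 5277 CPM in the parental and 4679.6 to 4707 CPM in the resistant SUDHL6 libraries. Fewer cells in S phase and less of these RNAs per cell cannot be told apart in bulk RNA.

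In SUDHL16 the E2F targets had a median of 0.14, with 11 of 19 above 0, beside -0.02 for all genes. Without CE-26 the median turned to -0.08, with 9 of 19 above 0, beside 0.05 for all genes, and without CE-26 and CE-30 it was 0.10, with 12 of 19 above 0. With all 6 libraries 0 were called by edgeR, against 5.30% of all genes, 4 had an unadjusted p under 0.05, against 19.1%, and 3 were called by DESeq2, against 11.3%. TYMS, which encodes thymidylate synthase, came nearest, at 65.5, 43.1 and 70.9 CPM in parental and 139, 153 and 106 CPM in resistant libraries. All 3 resistant libraries were higher, and the estimate was 1.14 (adjusted p 0.0509). TYMS was called without CE-26 (0.97, adjusted p 0.0360), 1 of 19 against 10.0% of all genes. Without CE-26 and CE-30, TYMS (1.10, adjusted p 0.0155) and CDC6, a replication licensing factor (-0.85, adjusted p 0.0463), were called, in opposite directions. These were 2 of 19 against 10.2% of all genes, close to the background. CE-26 and CE-30 were the lowest of their groups for most of these same genes, so medians and calls without them depend on the values tested.

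These 19 genes also show how the SUDHL16 libraries differ within their groups. Their summed level was 3236, 2003 and 3565 CPM in CE-25, CE-26 and CE-27, and CE-26 was the lowest of its group for 18 of the 19. Among the resistant libraries it was 3831, 4121 and 2249.6 CPM in CE-28, CE-29 and CE-30, and CE-30 was the lowest for 18 of the 19. The median log2 difference from the other libraries of the group was -0.74 for CE-26 and -0.80 for CE-30. CCND3, CDK4, CCNE1, CDKN2C and E2F1 were lowest of the resistant libraries in CE-30 too, while RB1 was highest there. CE-26 had the lowest total count of the SUDHL16 libraries and CE-30 the highest, and the part of depth in these differences was not tested.

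**Figure D5:**
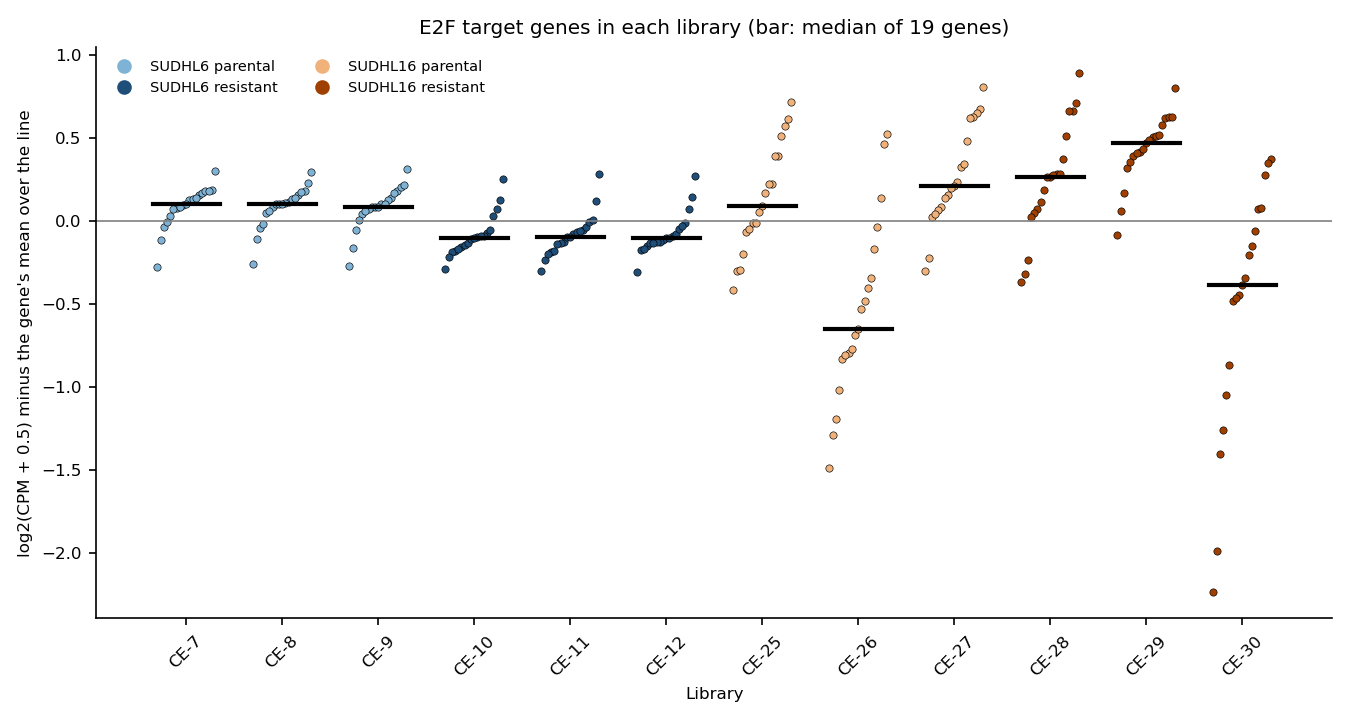
Log2 CPM of each of 19 E2F target genes in each library, relative to the mean of that gene over the 6 libraries of its line, with a bar at the median of the 19 genes. The parental SUDHL6 libraries lie above the resistant ones, and in SUDHL16 the bars of CE-26 and CE-30 lie below those of the other 4 libraries.

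Motif matches were more frequent among the promoters of these lists than among all entries. They were found in 10 of 28 entries of the E2F targets (35.7%, for CDK1, CDT1, MCM3, MCM6, MCM7, PCNA, POLA1, TYMS and UHRF1) and in 5 of 29 entries of the further G1/S genes (17.2%, for CDC25A, E2F2, E2F3, RBL1 and TFDP1), against 2.79% of all entries. The E2F targets were listed because they are known as such, so their higher share is no separate support for E2F acting on them here. Of the 10 genes described here, E2F1 alone had a match in its entries.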

How the data were processed

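RNA-sequencing counts of 12 libraries were used, 3 per group. The authors trimmed adapters, aligned reads to GRCh38 with HISAT2 and assembled transcripts with StringTie, and deposited raw counts per gene and library. The counting tool, its annotation and its strand setting were not given in the sources used here. Of 60675 genes, 56558 were in GENCODE 44, which gave symbols, positions and lengths. The total counts ran from 4131927 to 40885665 a library. Each line was fitted alone with edgeR 4.0.16 in R 4.3.3 (filterByExpr, TMM, two-sided quasi-likelihood test, Benjamini-Hochberg over all genes tested), with a call at an adjusted p under 0.05 and at least 1.5-fold. The interaction was fitted over all 12 libraries. CPM used TMM-scaled library sizes, and length was the union of exons. Intervals are at 95%. Counts of 0 were given a limit of 3 counts.

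The genes named are the 10 members and the list genes called in either line (at most 6 per list and line, by adjusted p). For each member the nearest tested protein-coding gene on either side was named too. Nearest was judged by gene start, so such a gene can overlap the member or end farther from it than another gene. The list genes RRM2, CDK1 and CDC6, TFDP2 in SUDHL6, TYMS in SUDHL6 and in SUDHL16 with all libraries, and CCNE2 as a comparison were named after their values were seen. The members and lists were chosen with earlier results of these data known. The further G1/S list was CCND1, CCNE2, CCNA1, CCNA2, CDK2, CDKN1A, CDKN1C, CDKN2B, CDKN2D, RBL1, RBL2, E2F2 to E2F8, TFDP1, TFDP2, CDC25A, SKP2, CKS1B, FBXW7, CCNH, CDK7 and MNAT1. The E2F target list was PCNA, MCM2, MCM3, MCM5, MCM6, MCM7, CDC6, CDT1, RRM1, RRM2, TYMS, TK1, MYBL2, CDC45, ORC1, POLA1, CDK1, UHRF1 and SLBP. In the E2F target list and among the B cell markers 1 further gene each had been listed and was not used here. Alternatives were DESeq2 1.42.0, upper-quartile scaling, library totals, no filter on low counts, all 12 libraries in a single fit, no fold threshold, protein-coding genes only, each library left out in turn, a 2 Mb window, and SUDHL16 without CE-26 and CE-30. Tables used pandas 2.3.3, scipy 1.17.1 and numpy 2.4.6 in Python 3.11.15, and plots matplotlib 3.10.9.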

Additional observations from a re-analysis of the deposited data

Results flagged for a closer look

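For CDK4 and CDKN1B every resistant SUDHL6 library lay below every parental one, while every resistant SUDHL16 library lay above every parental one, as in 4.79% of all 13576 genes tested in both lines. The log2 fold change in SUDHL16 minus that in SUDHL6 was 0.83 for CDK4 and 0.72 for CDKN1B. The difference was tested with the interaction in edgeR over all 12 libraries, where the adjusted p was 0.103 for CDK4 and 0.0621 for CDKN1B and both missed the threshold. With the same libraries DESeq2 passed both (adjusted p 0.00674 and 3.50e-05), where 15.1% of all genes did. In edgeR, upper-quartile scaling passed CDKN1B alone (adjusted p 0.0270), and protein-coding genes only passed both (adjusted p 0.0388 and 0.0184). Neither passed in edgeR with library totals (adjusted p 0.215 and 0.172) or with no filter (adjusted p 0.322 and 0.287). Without CE-26, the parental SUDHL16 library with the lowest depth, both passed, at 0.60 (adjusted p 0.0117) and 0.57 (adjusted p 0.0131), where 14.0% of all genes did. With any other single library left out, neither passed. Both genes were flagged from these same values, so the passes are no separate support for a difference. Kit and instrument differ between the lines and cannot be told apart from them.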

How the results depend on the processing

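In SUDHL6 all 120 alternative values of the 10 genes kept their direction. The number of the 10 genes called there, 1 in the report, was 0 in the single fit of all 12 libraries, 9 with no fold threshold, and 0 to 1 when each library was left out in turn. In SUDHL16, where 0 were called, it was 1 with DESeq2, 1 in the single fit and 1 without CE-26 and CE-30, each time E2F1. The last of these settings was chosen after seeing the data and drops the resistant library lowest in E2F1. In SUDHL16 110 of 117 values kept their direction and 7 turned. CCND3 turned to -0.020 with upper-quartile scaling and ranged from -0.028 to 0.27 over the left-out libraries. CCNE1 turned to -0.064 with upper-quartile scaling and -0.017 with protein-coding genes only, and ranged from -0.27 to 0.35 over the left-out libraries, turning to -0.072, -0.014 and -0.27 in 3 of them.

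The number of genes that differed between the lines, 0 in the report against 7.16% of all genes, was 3 with DESeq2 (against 15.1%) and 3 without CE-26 and CE-30 (against 19.1%). It was 1 with upper-quartile scaling, 2 with protein-coding genes only, and 0 to 2 over the left-out libraries. Where no share of all genes is given here or above, a count cannot be weighed against the background. For the further G1/S genes the SUDHL6 count of 2 was 0 in the single fit and 18 with no fold threshold, and the SUDHL16 count of 1 was 2 with DESeq2, 0 with upper-quartile scaling, 2 in the single fit and 0 to 1 over the left-out libraries. For the E2F targets the SUDHL6 count of 1 was 0 with upper-quartile scaling, 0 in the single fit and 18 with no fold threshold. Their SUDHL16 count of 0 was 3 with DESeq2, 1 with upper-quartile scaling, 3 in the single fit, 1 with protein-coding genes only, 2 without CE-26 and CE-30, and 0 to 1 over the left-out libraries. The cause of these changes was not tested, except that the single fit gives each gene 1 estimate of spread for both lines by its construction and that no fold threshold adds smaller changes. Of the 20 regional medians, 10 moved by more than their spread with a 2 Mb window and 10 did not.

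With no filter on low counts the median of all genes moved to -1.18 in SUDHL16 and to -0.96 for the difference between the lines, which upper-quartile scaling moved to -0.20 and DESeq2 to -0.15. With 3 libraries a group and a wide spread in SUDHL16, the interval of each tested gene there includes 0, except that of E2F1. CE-26 holds 64 to 692 counts on each of the genes other than CCND2.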
